A study of Mus musculus with 6 samples.

Results

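Livers of LERKO mice, which lack the estrogen receptor ERα in hepatocytes, were examined for 10 genes of the hepatocytes around the central vein: Glul, Axin2, Lgr5, Tbx3, Rhbg, Oat, Slc1a2, Slc1a4, Rnf43 and Znrf3. The genes were chosen by name, and each was read from its probe set that the array annotation pairs with 1 gene, or from the one with the highest mean over the 6 arrays where there were several. They are 10 of the 18820 genes with such a probe set. LERKO mice carry the genotype Alb-cre/ERα fl/fl, with cre recombinase driven by the albumin promoter, which is active in hepatocytes, and CT mice carry ERα fl/fl without cre. All 6 mice were females on a C57BL/6J background, and total RNA of each liver was hybridised to its own Affymetrix Mouse Gene 1.1 ST array, giving 3 LERKO and 3 CT samples. Loss of ERα and presence of the cre transgene go together in this design, ERα of other liver cells is left intact, and neither the age of these mice nor their feeding state at collection is named in the sources used here. The comparison asks which transcripts of LERKO liver differ from those of CT liver.

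Hepatocytes differ in gene expression along the axis of the liver lobule, from the portal vein, where blood enters, to the central vein, where it leaves. Endothelial cells of the central vein secrete Wnt ligands and R-spondins, and these hold β-catenin signalling active in the nearest hepatocytes. In the layers of hepatocytes next to the vein, glutamine synthetase binds the ammonia that the periportal urea cycle has left, with glutamate as the second substrate. The genes described here cover this program. They include the enzyme itself, the proteins that bring or make its substrates, and the Wnt targets of the same cells. The rest are the membrane proteins that set how much Wnt these cells sense, and Slc1a4, a transporter of other amino acids.

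All values are signals of the robust multichip average (RMA) on the log2 scale, so that a difference of 1 is a 2-fold difference in signal. Probe sets below a signal of 100 (6.64 on the log2 scale) in all 6 arrays were left out, which kept 10633 probe sets. LERKO was compared with CT by limma, a linear model with shared variance estimates, and p values were adjusted over all probe sets kept, with a threshold of 0.05. Of the 10 genes, 8 passed the filter, and Axin2 and Slc1a4 stayed below a signal of 100 in every array.

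Esr1, which encodes ERα and is the targeted gene, had 6.75, 7.06 and 6.77 in the 3 LERKO livers, against 8.45, 8.78 and 8.29 in the 3 CT livers. LERKO over CT, this was a log2 fold change of −1.65 (standard error, SE, 0.15, limma adjusted p = 0.149), and the groups did not overlap. The paper's own limma analysis of these arrays reports Esr1 among 3 significant genes at a false discovery rate of 5%. The 5 measured hepatocyte markers (Alb, Apoa1, Ttr, Fgb and Hnf4a) were above 100 in every array. Their summed level lay between 15.40 and 15.46 in LERKO and between 15.37 and 15.48 in CT livers. Genes of other organs stood out in a pair of arrays. All 5 adrenal markers reached a signal of 100 in LERKO replicate 2 only, with a summed level of 12.79 there and at most 6.24 in the other arrays. In CT replicate 3 only, 3 of 4 pancreas markers and 3 of 5 skeletal muscle markers did so, with summed levels of 10.69 for pancreas, beside at most 6.44 elsewhere, and of 9.68 for muscle, beside at most 7.67 elsewhere. Without this pair of arrays 0 of the 8 genes had an adjusted p under 0.05 from limma. Correlations between arrays over all probe sets ranged from 0.985 to 0.991.

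None of the 8 genes that passed the filter met the threshold in LERKO against CT livers, nor did any other probe set (0 of 8 and 0.0% of all probe sets kept, adjusted p under 0.05 from limma). At an unadjusted p under 0.05 the counts were 0 of 8 and 6.98% of all. The LERKO and CT values overlapped for all 10 genes, whereas the groups did not overlap in 13.0% of all probe sets kept. In the mean, 7 of the 8 genes were higher in LERKO than in CT livers, beside 46.5% of all probe sets, and their median log2 fold change was 0.25, against −0.01 for the 7895 single-gene probe sets kept. Their adjusted p values lay between 0.729 and 0.997. Exact two-sided permutation tests over the mice gave p from 0.2 to 1.0 for the 10 genes, and 3 mice against 3 cannot give a p below 0.1. CT replicate 2 was the lowest of the 6 mice for 7 of the 10 genes, and without it the median log2 fold change was 0.03. In whole liver RNA, fewer cells of a kind and less RNA per cell cannot be told apart.

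**Figure D1:**
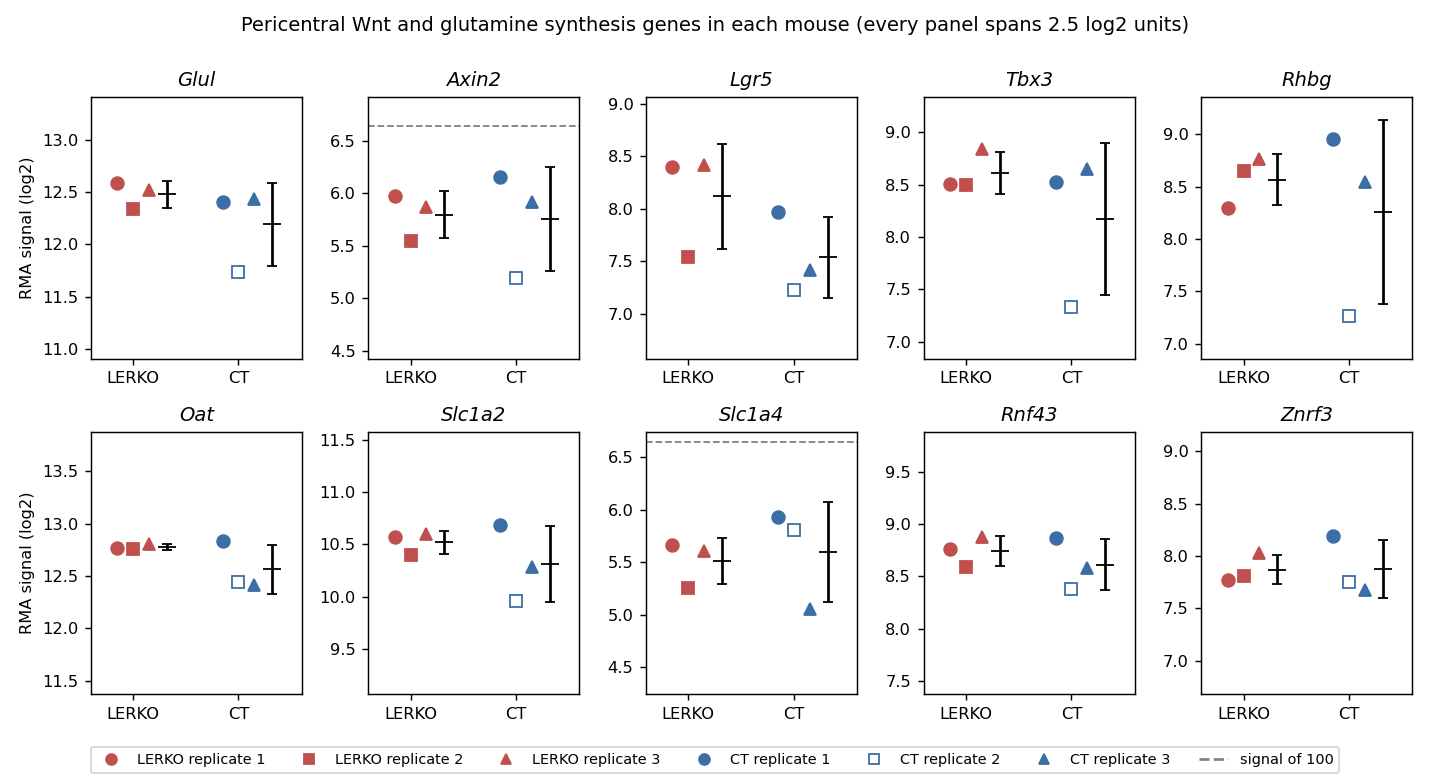
RMA signal (log2, vertical axis) of the 10 genes in each of 3 LERKO (red) and 3 CT (blue) mice, with the mean and SD of each group as black bars; the dashed line marks a signal of 100, and CT replicate 2 is the open square. CT replicate 2 lies lowest in 7 of the 10 panels, and the LERKO and CT values overlap in all 10.

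Glul encodes glutamine synthetase, which in the liver is made almost only by the hepatocytes bordering the central vein. Its signal was 12.58, 12.33 and 12.52 in LERKO livers, against 12.41, 11.74 and 12.43 in CT livers. All mice but CT replicate 2 lay within 0.25 of each other, and CT replicate 2 lay 0.60 below the lowest of them. The mean was 12.48 ± 0.13 in LERKO and 12.19 ± 0.39 in CT livers (SD, n = 3 each), a log2 fold change of 0.29 (SE 0.20, 95% interval −0.18 to 0.76, adjusted p = 0.786). Without CT replicate 2 it was 0.06 (95% interval −0.19 to 0.30, adjusted p = 0.931).

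The array holds a second single-gene probe set for Glul, with 12.09, 11.77 and 11.90 in LERKO livers and 11.90, 11.33 and 11.63 in CT livers. In both probe sets LERKO replicate 1 was highest and CT replicate 2 lowest. For the second, the log2 fold change was 0.30 (SE 0.16, adjusted p = 0.743), and 0.16 without CT replicate 2 (95% interval −0.17 to 0.49, adjusted p = 0.849). The ID of this second probe set falls between those of Teddm1a and Stx6, the neighbours of Glul on chromosome 1. The ID of the probe set of higher mean falls between those of C1d and Spred2 on chromosome 11, where RefSeq annotates Glns-ps1, a glutamine synthetase pseudogene. Signal from Glul and from this near copy cannot be told apart in the probe set of higher mean.

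RefSeq promoter entries were found for 6 of the 10 genes, 7 entries in all (build GRCm38.p6), and were searched on both strands in the 250 bases before the start. The letters CTTTGAT, a core of the motif bound by the TCF/LEF partners of β-catenin, stood in 3.21% of all 32851 promoters and in 1 of the 7, that of Slc1a2, as ATCAAAG on the printed strand, 207 to 201 bases before the start. The estrogen receptor half-site AGGTCA stood in 14.0% of all promoters and in 1 of the 7, that of Glul, 57 to 52 bases before the start. The full palindrome GGTCANNNTGACC, which overlaps AGGTCA where an A precedes it, stood in 0.0639% of all promoters and in 0 of the 7. The pair of promoters with a match is printed, since they belong to the enzyme and to the transporter of its substrate glutamate, with the matched letters in capitals. The Glul window lies at chr1:153899679-153899928 on the plus strand. The Slc1a2 window lies at chr2:102706188-102706437 on the plus strand and precedes the start of 1 transcript, which lies within the annotated gene.
Glul: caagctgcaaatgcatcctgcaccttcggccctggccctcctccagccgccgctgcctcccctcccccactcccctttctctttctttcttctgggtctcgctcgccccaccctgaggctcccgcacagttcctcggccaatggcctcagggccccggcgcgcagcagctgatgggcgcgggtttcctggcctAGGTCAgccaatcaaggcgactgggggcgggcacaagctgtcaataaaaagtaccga
Slc1a2: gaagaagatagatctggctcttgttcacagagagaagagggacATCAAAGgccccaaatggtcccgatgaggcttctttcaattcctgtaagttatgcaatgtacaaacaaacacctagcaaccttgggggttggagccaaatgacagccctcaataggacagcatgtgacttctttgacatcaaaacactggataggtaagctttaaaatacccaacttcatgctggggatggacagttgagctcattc
A match of letters is not a measured binding site, and the arrays carry no measurement of factor binding.

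The next genes, apart from Slc1a4, supply the substrates of glutamine synthetase. Oat, ornithine aminotransferase, feeds carbon and nitrogen of ornithine into glutamate in pericentral hepatocytes. It measured 12.77, 12.76 and 12.81 in LERKO livers, against 12.83, 12.44 and 12.41 in CT livers. LERKO mice lay close together (SD 0.03), and a pair of CT mice, replicates 2 and 3, lay below all of them while CT replicate 1 lay above. The log2 fold change was 0.22 (SE 0.12, 95% interval −0.08 to 0.51, adjusted p = 0.751), and it was 0.15 without CT replicate 2 (adjusted p = 0.857).

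Slc1a2, the glutamate transporter that pericentral hepatocytes use to take up glutamate from blood, measured 10.57, 10.39 and 10.60 in LERKO livers, against 10.68, 9.96 and 10.28 in CT livers. The LERKO values fell inside the range of the CT values. Its log2 fold change of 0.21 (SE 0.18, 95% interval −0.22 to 0.65, adjusted p = 0.820) was 0.04 without CT replicate 2. Slc1a4, a transporter of small neutral amino acids such as alanine, serine and cysteine, stayed below a signal of 100, with 5.66, 5.26 and 5.61 in LERKO livers and 5.93, 5.81 and 5.05 in CT livers. CT replicate 2 was its next to highest mouse, unlike in the other genes, and CT replicate 3 was its lowest, as for Oat. The difference of its means was −0.09, and 0.02 without CT replicate 2.

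Rhbg, an ammonium transporter of the Rhesus family in the membrane of pericentral hepatocytes, had the largest CT spread of the 10 genes. Its signal was 8.29, 8.64 and 8.76 in LERKO livers, against 8.95, 7.27 and 8.55 in CT livers. CT mice held both the highest and the lowest value, and CT replicate 2 lay 1.02 below the nearest mouse while the other 5 spanned 0.66. The mean was 8.57 ± 0.25 in LERKO and 8.25 ± 0.88 in CT livers (SD, n = 3 each), a log2 fold change of 0.31 (SE 0.41, 95% interval −0.68 to 1.30, adjusted p = 0.883). Without CT replicate 2 the sign turned, to −0.18 (95% interval −0.65 to 0.28, adjusted p = 0.877).

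Among the Wnt targets, Lgr5 had the largest difference of the 10 genes. Lgr5 is a receptor for R-spondins and, in the liver, a target of Wnt signalling in the hepatocytes nearest to the central vein. It measured 8.40, 7.54 and 8.42 in LERKO livers, against 7.97, 7.22 and 7.42 in CT livers. LERKO replicates 1 and 3 lay above all CT mice, and LERKO replicate 2, the array with adrenal markers, lay below CT replicate 1. The mean was 8.12 ± 0.50 in LERKO and 7.54 ± 0.39 in CT livers (SD, n = 3 each), a log2 fold change of 0.58 (SE 0.29, 95% interval −0.11 to 1.28, adjusted p = 0.729). It was 0.43 without CT replicate 2 (95% interval −0.37 to 1.23, adjusted p = 0.824), and 0.81 without LERKO replicate 2 and CT replicate 3 (adjusted p = 0.408).

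Tbx3, a T-box transcription factor that acts as a repressor and follows β-catenin activity in pericentral hepatocytes, measured 8.50, 8.49 and 8.84 in LERKO livers, against 8.53, 7.34 and 8.65 in CT livers. The mice other than CT replicate 2 spanned 0.35, and CT replicate 2 lay 1.16 below them. The mean was 8.61 ± 0.20 in LERKO and 8.17 ± 0.73 in CT livers (SD, n = 3 each), a log2 fold change of 0.44 (SE 0.34, 95% interval −0.38 to 1.27, adjusted p = 0.810). It was 0.02 without CT replicate 2 (95% interval −0.31 to 0.35, adjusted p = 0.980).

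Axin2, a scaffold of the complex that degrades β-catenin and a widely used readout of Wnt signalling, did not reach a signal of 100. It had 5.98, 5.55 and 5.87 in LERKO livers, against 6.15, 5.20 and 5.92 in CT livers. CT replicate 2 was again lowest, and the difference of means was 0.04, or −0.24 without that mouse.

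Rnf43 and Znrf3 are membrane ubiquitin ligases that remove Frizzled receptors from the cell surface, and R-spondins bound to Lgr receptors clear these ligases in turn. Rnf43 measured 8.76, 8.59 and 8.87 in LERKO livers, against 8.86, 8.38 and 8.58 in CT livers, a log2 fold change of 0.13 (SE 0.14, adjusted p = 0.844). Znrf3 measured 7.77, 7.81 and 8.03 in LERKO livers, against 8.19, 7.75 and 7.68 in CT livers. For Znrf3 the LERKO mice lay between the highest and the lowest CT mouse, and the log2 fold change was −0.00 (SE 0.15, 95% interval −0.36 to 0.36, adjusted p = 0.997). Without CT replicate 2 the log2 fold change was 0.02 for Rnf43 and −0.06 for Znrf3.

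**Figure D2:**
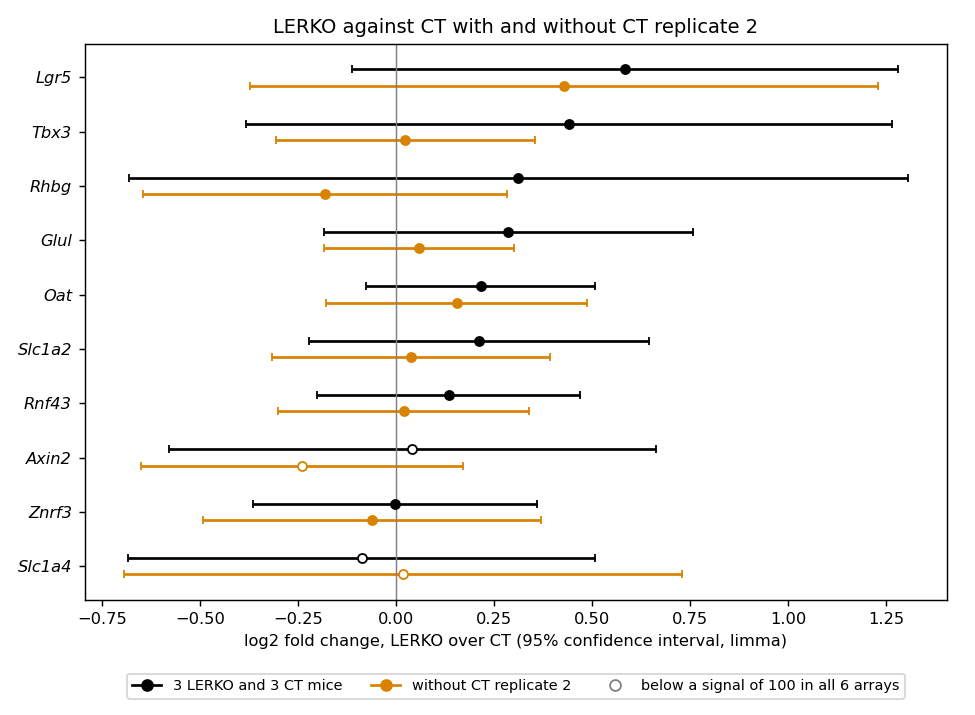
Log2 fold change of LERKO over CT (horizontal axis) for the 10 genes with 95% confidence intervals from limma, over all 6 mice (black) and without CT replicate 2 (orange); open points are genes below a signal of 100 in all 6 arrays, from a fit without the filter. Every interval includes 0. Without CT replicate 2 the values lie closer to 0 for every gene except Axin2 and Znrf3, which lie farther from 0 and below it.

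CT replicate 2 lay below the CT mean for all 8 genes that passed the filter, so leaving it out necessarily lowers each log2 fold change. Without it, 6 of the 8 log2 fold changes were above 0 and 2 below. Their median was 0.03, beside 0.00 for the 7895 single-gene probe sets kept. Again 0 of 8 met the threshold, beside 0.0% of all probe sets, and 0 of 8 had an unadjusted p under 0.05, beside 6.24% of all. The adjusted p values were 0.824 to 0.983. CT replicate 2 was the lowest mouse for 6 of the 8 genes, against 16.4% of all probe sets kept. It lay below the other 5 mice by more than their whole range for Tbx3, Rhbg and the Glul probe set of higher mean, against 2.87% of all. For the second Glul probe set it lay 0.31 below the other 5 mice, which spanned 0.46. The SD was larger in CT than in LERKO livers for 9 of the 10 genes and for 60.6% of all probe sets. Over the 8 genes the median SD was 0.14 in LERKO and 0.37 in CT livers, while over all probe sets kept it was 0.10 in LERKO and 0.12 in CT livers. The 3 genes for which CT replicate 2 was not lowest, Oat, Slc1a4 and Znrf3, had their lowest value in CT replicate 3, the array with pancreas and muscle markers.

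Other genes of the central vein region were also low in this mouse. Of a list of 16 further pericentral genes, 14 had a single-gene probe set and 13 passed the filter, of which 11 were higher and 2 lower in the mean of LERKO livers and 0 met the threshold. Their median log2 fold change was 0.12, or 0.02 without CT replicate 2 (7 higher and 6 lower). CT replicate 2 was lowest for 10 of the 13 and highest for none. The smallest p values belonged to Cyp7a1, Ahr and Notum. Cyp7a1, which controls the rate of bile acid formation from cholesterol, had 12.39, 12.49 and 12.57 in LERKO livers, against 12.05, 11.97 and 12.04 in CT livers, and so differed little between CT mice. Its log2 fold change was 0.46 (SE 0.07, adjusted p = 0.703), and 0.44 without CT replicate 2. For Ahr, the aryl hydrocarbon receptor, the log2 fold change was 0.51 (SE 0.16, adjusted p = 0.703), and 0.38 without CT replicate 2. Notum, a secreted enzyme that inactivates Wnt ligands, had 0.23 (SE 0.09, adjusted p = 0.703), and 0.21 without CT replicate 2. LERKO and CT mice did not overlap for 4 of the 13, beside 13.0% of all probe sets kept: Cyp7a1, Ahr, Notum and Cyp2e1. Cyp2e1, a cytochrome of the pericentral zone named here after its values were known, had 13.20, 13.20 and 13.17 in LERKO livers and 13.14, 13.04 and 13.17 in CT livers, so that the closest mice of the groups were nearly equal.

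Periportal genes ran the other way in CT replicate 2. Of 14 listed, 10 had a single-gene probe set and all 10 passed the filter, with 4 higher and 6 lower in the mean of LERKO livers, 0 past the threshold and a median log2 fold change of −0.02 (0.04 without CT replicate 2). CT replicate 2 was the highest mouse for 7 of the 10, against 28.3% of all probe sets kept, and the lowest for 1. Etnppl, which breaks down phosphoethanolamine, measured 8.92, 9.42 and 8.74 in LERKO livers, against 9.45, 10.47 and 9.15 in CT livers (log2 fold change −0.66, adjusted p = 0.743, and −0.27 without CT replicate 2). Cdh1, the adhesion protein E-cadherin, measured 7.20, 7.09 and 6.90 in LERKO livers, against 7.09, 8.23 and 7.31 in CT livers (log2 fold change −0.48, adjusted p = 0.758, and −0.14 without CT replicate 2). Hal, the first enzyme of histidine breakdown, measured 11.51, 11.84 and 11.59 in LERKO livers, against 11.79, 12.28 and 11.50 in CT livers (log2 fold change −0.21, adjusted p = 0.829, and 0.00 without CT replicate 2). In each of the 3, CT replicate 2 was the highest of the 6 mice. Relative to each gene's mean over the 6 mice, the median deviation of CT replicate 2 was −0.53 over the 8 genes described first, −0.28 over the other pericentral genes and 0.26 over the periportal genes.

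**Figure D3:**
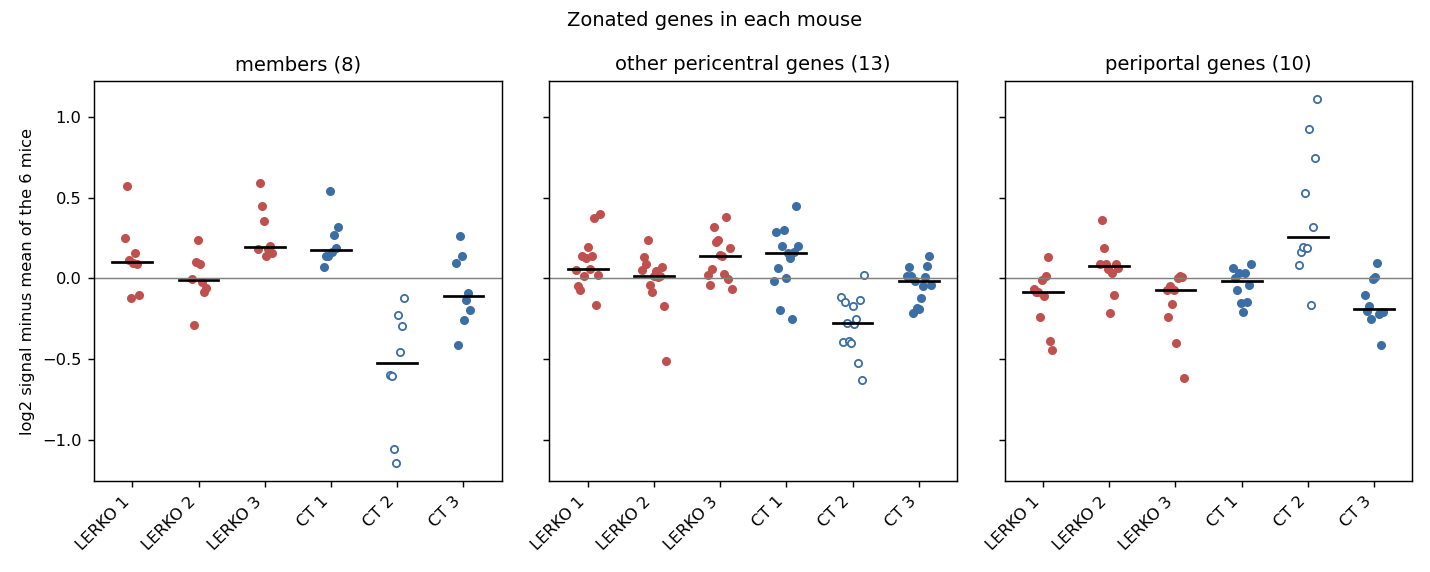
Deviation of each gene from its mean over the 6 mice (log2, vertical axis) in every mouse, for the 8 of the 10 genes that passed the filter, 13 other pericentral genes and 10 periportal genes; each point is a gene, bars are medians, and open points are CT replicate 2. The median of CT replicate 2 is −0.53 and −0.28 for the pericentral panels and 0.26 for the periportal panel.

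Markers of other liver cells also differed in CT replicate 2. The summed level of the Kupffer cell markers (4 of 5 above 100) was 11.24 to 11.44 in LERKO livers and, in CT livers, 11.31, 10.79 and 11.51 in replicates 1 to 3, and CT replicate 2 was lowest for all 4. The summed level of the 5 endothelial markers was 11.17 to 11.34 in LERKO livers and 11.15 to 11.52 in CT livers. CT replicate 2 was lowest for 3 of the 5 and highest for 1, Lyve1 (7.89). The summed level of the stellate cell markers was 11.80 to 12.06 in LERKO livers and 11.70 to 12.22 in CT livers, with CT replicate 2 lowest in the sum. Of the 5 stellate markers, CT replicate 2 was lowest for 2 and highest for 1, Col1a1 (6.15), which stayed below 100 in every array. Of 4 measured cholangiocyte markers only Sox9 reached 100, in CT replicates 1 and 2, and Krt19, Krt7 and Epcam stayed below it in every array. The part of these differences in the levels of the 10 genes was not tested.

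The ligands that feed the pathway were at the low end of the array. Of 18 Wnt ligands, receptors and R-spondins, 8 passed the filter, of which 1 was higher and 7 lower in the mean of LERKO livers, 0 met the threshold and the median log2 fold change was −0.10. Over all 18, with those below the filter, 8 were higher and 10 lower, and the median was −0.03. With all mice, the smallest p values among the 8 that passed the filter were those of Porcn, Fzd7 and Fzd4. Porcn, the enzyme that attaches the lipid of Wnt ligands, had −0.19 (adjusted p = 0.743). It had −0.11 without CT replicate 2, the only array in which it reached 100. The Frizzled receptors Fzd7 and Fzd4 had −0.24 (adjusted p = 0.747) and −0.14 (adjusted p = 0.783). Without CT replicate 2 these receptors had −0.20 and −0.15. Wnt2, Wnt9b and Rspo3, the ligands known from central vein endothelium, were below 100 in all arrays and were picked out with their values in view. Wnt2 had 5.37, 5.76 and 5.49 in LERKO livers, against 5.29, 4.77 and 5.60 in CT livers. Wnt9b had 4.43, 4.31 and 4.35 in LERKO livers, against 4.21, 3.99 and 4.28 in CT livers. Rspo3 had 6.06, 6.07 and 6.11 in LERKO livers, against 6.34, 5.60 and 6.23 in CT livers. CT replicate 2 was the lowest mouse for each of the 3, but for 4 of all 18 genes of the list, and among the 8 that passed the filter it was lowest for 1 and highest for 3.

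Downstream of the receptors, 15 of 18 β-catenin core and transcription genes were measured and 13 passed the filter, with 7 higher, 6 lower, 0 past the threshold and a median log2 fold change of 0.02. Ctnnb1, which encodes β-catenin and was added with its values in view, measured 10.20, 10.27 and 10.27 in LERKO livers, against 10.26, 10.34 and 10.33 in CT livers. Tcf7l1, a TCF factor that mainly represses, had a log2 fold change of −0.37 (adjusted p = 0.703), with 6.06, 6.05 and 5.93 in LERKO livers and 6.35, 6.66 and 6.16 in CT livers. Only CT replicate 2 reached a signal of 100, so Tcf7l1 passed the filter through the group where it was higher, and without that mouse the log2 fold change was −0.24. Ccnd1, the cell cycle protein cyclin D, had 0.40 (adjusted p = 0.703, and 0.47 without CT replicate 2). The β-catenin coactivator Bcl9l had 0.19 (adjusted p = 0.746, and 0.20 without CT replicate 2). Of 8 secreted or membrane Wnt inhibitors, 1 passed the filter, Kremen1, a receptor for Dickkopf proteins, with 0.15 (adjusted p = 0.761, and 0.09 without CT replicate 2). The median of the core genes lay close to that of all genes, and CT replicate 2 was lowest for 2 of the 13 core genes.

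Among enzymes and transporters around glutamine 0 met the threshold. Of 16 glutamine and glutamate enzymes, 12 were measured and 10 passed the filter, with 4 higher, 6 lower and a median log2 fold change of −0.02. Prodh, which oxidises proline, had 0.35 (SE 0.26, adjusted p = 0.802), or 0.10 without CT replicate 2, and was lowest in CT replicate 2 (8.93, beside 9.39 to 9.97 in the other mice). Gclc, which makes the glutathione precursor from glutamate, had −0.17 (adjusted p = 0.815, and −0.10 without CT replicate 2), and the aminotransferase Got1 had −0.27 (adjusted p = 0.821, and −0.13 without CT replicate 2). Of 9 further amino acid transporters 6 passed the filter, with 2 higher, 4 lower and a median of −0.06. Slc7a5, a transporter of large neutral amino acids, had 0.39 (adjusted p = 0.703, and 0.30 without CT replicate 2). Its partner subunit Slc3a2 had 0.12 (adjusted p = 0.819, and 0.02 without CT replicate 2). Slc7a5 measured 6.62, 7.09 and 6.66 in LERKO livers, against 6.44, 6.23 and 6.55 in CT livers, and passed the filter through LERKO replicates 2 and 3 only, the group where it was higher. Slc38a4, a sodium-coupled transporter of neutral amino acids, had −0.13 (adjusted p = 0.784, and −0.06 without CT replicate 2).

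Near relatives of the 10 genes mostly stayed below the filter. Of 9 measured, Axin1 and Lgr4 passed the filter. Axin1, the constantly made counterpart of Axin2, differed by 0.11 on the log2 scale (adjusted p = 0.815, and 0.05 without CT replicate 2) and reached 100 in LERKO replicate 3 only, and Lgr4, another R-spondin receptor, had −0.02 (adjusted p = 0.982, and 0.06 without CT replicate 2). Lgr6, Tbx2, Rhag, Rhcg, Slc1a1, Slc1a3 and Slc1a5 were below a signal of 100 in all 6 arrays. Unlike Lgr5, Lgr4 was highest in CT replicate 2 (9.01, beside 8.73 to 8.92 in the other mice).

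The genes whose pattern over the 6 mice was most like that of the Glul probe set of higher mean lay outside the 10. The second Glul probe set was not compared in this way. Among 7893 other single-gene probe sets kept, Pearson's r with the Glul probe set of higher mean was highest for Ube2e2 (0.988), Lypla1 (0.987), Npr2 (0.985), Scarb2 (0.980) and Ercc3 (0.979). Each of these was lowest in CT replicate 2, and 115 probe sets had an r above 0.9 over these 6 points, which share that mouse. Among the genes described first, Tbx3 had an r of 0.95 (rank 35), Slc1a2 0.86, Rhbg 0.84, Rnf43 0.81, Lgr5 0.74, Oat 0.60 and Znrf3 0.26. Ube2e2, a ubiquitin-conjugating enzyme, measured 8.75, 8.37 and 8.60 in LERKO livers, against 8.52, 7.86 and 8.49 in CT livers.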

How the data were processed

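Liver RNA of 3 LERKO and 3 CT female mice was analysed, 1 array per mouse, grouped by the sample titles, which number biological replicates. The deposited values are log2 signals that the authors made with RMA of the oligo package (version and genome build not given in the sources used here): background correction, quantile normalization over arrays and summary per probe set, which can compress low signals and large differences. The deposited table has 35556 rows, of which 21218 are paired with 1 gene, 1881 with several and 12457 with none by the array annotation. Of the single-gene rows, 21185 matched RefSeq symbols.

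Probe sets with a signal of 100 in at least 1 array were kept (10633) and compared with limma 3.58.1 in R 4.3.3, two-sided, with Benjamini-Hochberg adjustment over all kept, at a false discovery rate of 5%. Standard errors and 95% intervals are from the same model. Members of the gene lists below the filter were read by value, and their intervals came from a fit without the filter. The number of arrays limits the precision.

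All 10 genes are named, with Esr1, their near relatives and up to 3 genes of smallest p in each other list. The cell type markers and the 5 genes most like the Glul probe set of higher mean are named too. The genes and lists were chosen with earlier results of these data known. Alternatives were the signal filter, limma settings, array scaling, the methods' t-test, a replicate block and leaving out each array. The procedure was tested on simulated data. Sequences are RefSeq promoters of GRCm38.p6.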

Additional observations from a re-analysis of the deposited data

How the results depend on the processing

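Under each alternative run, 0 of the 8 genes that passed the filter were called, and 0 of all 10 without the filter. Over all probe sets the count called was 3 with a signal of 100 required in all 6 arrays and 1 with a mean-variance trend in limma, against 0 otherwise, and 0 to 1 with 1 array left out (1 without LERKO replicate 3). Of 275 alternative values, 263 kept direction and side of the threshold or moved within the spread of replicates. The sign of Rhbg turned without CT replicate 2 (−0.1823), and its log2 fold change ran from −0.1823 to 0.6587 with 1 array left out. Znrf3, at −0.00, turned positive with arrays centred on the median (0.0082), a further quantile normalization (0.0050), cyclic loess (0.0073), and without LERKO replicate 1, LERKO replicate 2 or CT replicate 1, with a range of −0.1012 to 0.1555 over arrays left out. The difference of Axin2, 0.04, turned negative with array weights (−0.03) and without LERKO replicate 1 or CT replicate 2 (−0.05 and −0.24), and that of Slc1a4, −0.09, turned positive without LERKO replicate 2, CT replicate 1 or CT replicate 2 (0.04, 0.08 and 0.02). The median of the Wnt ligands and receptors was −0.03 without a filter and −0.16 without CT replicate 3, against −0.10. The causes were not tested. At an unadjusted p under 0.05 from limma, Lgr5, Oat and Slc1a2 passed without CT replicate 1 (log2 fold changes 0.80, 0.35 and 0.40). These were 3 of 8, beside 649 of 10633 probe sets. Lgr5 alone passed without LERKO replicate 2 (0.87), 1 of 8 beside 801 of 10633. It also passed alone without the arrays with genes of other organs (0.81, chosen after seeing the data), 1 of 8 beside 1152 of 10633. The median over the 8 genes was 0.03 without CT replicate 2 and 0.40 without CT replicate 1, against 0.25.

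With a replicate block, 0 probe sets and 0 of the 8 genes were called, and 574 probe sets had an unadjusted p under 0.05, against 742 without it. Lgr5 was among the 574. Deviations from the group means correlated at −0.157, −0.073 and −0.137 for mice with the same number, and at 0.005 to 0.161 for mice with different numbers. Centring within groups of 3 ties these values together, so they cannot show whether mice with the same number share more than the number. Axin2 and Slc1a4 stayed below a signal of 100, so they have no adjusted p under the filter.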

Other observations

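CT replicate 2 stood apart in genes outside the lists as well, picked out with their values in view. Among the 7895 single-gene probe sets kept, it lay below the other 5 mice by more than their range in 220, and above them by more than their range in 436. Mup6, a major urinary protein, measured 11.28, 11.63 and 11.88 in LERKO livers, against 11.16, 8.78 and 11.37 in CT livers. Elovl3, a fatty acid elongase, measured 6.60, 6.41 and 6.97 in LERKO livers, against 6.34, 4.06 and 6.83 in CT livers. Sult3a1, a sulfotransferase, measured 10.14, 9.95 and 10.30 in LERKO livers, against 10.09, 8.63 and 10.35 in CT livers. Ciart, a repressor of the circadian clock, measured 8.25, 8.21 and 7.98 in LERKO livers, against 7.92, 6.70 and 8.25 in CT livers. In the other direction, Acmsd, an enzyme of tryptophan breakdown, measured 7.36, 7.86 and 7.24 in LERKO livers, against 7.88, 9.16 and 7.70 in CT livers, and Mmd2 measured 7.22, 7.71 and 7.75 in LERKO livers, against 8.02, 9.54 and 7.48 in CT livers.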
